A study of Mus musculus with 32 samples.

Results

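The comparison described here sets 6 leukemias, taken from the bone marrow of *Pax5+/-;Myd88+/-* mice, against 4 samples of proB and preB cells of healthy wild type (WT) mice, and follows every gene of the array through it. The members were chosen by the sample titles, and they are 10 of the 32 Affymetrix mouse gene arrays of the series. Each leukemia came from a mouse that carries 1 intact and 1 disrupted allele of *Pax5* and of *Myd88*, on a mixed C57BL/6×CBA background. The disrupted *Myd88* allele is Myd88 tm1.1Defr. The WT cells were sorted from bone marrow as B220low IgM-, whereas the tissue label of the leukemias reads only bone marrow. Titles of the study's supplementary tables speak of B220+ cells of these marrows, so how far the leukemic cells were purified is not settled by the sources used here. All mice lived in a pathogen-free area up to the age of 2 months and then in a conventional facility, with no treatment. The ages of the single mice are not given in the labels. Each array is labelled a biological replicate. RNA was read as gene-level log2 values, on which a difference of 1 is a 2-fold difference.

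Pax5 is the transcription factor that commits lymphoid progenitors to the B lineage, where it activates genes of the pre-B cell receptor and represses genes of other lineages. Normal proB cells rearrange the immunoglobulin heavy chain locus under the influence of interleukin 7. PreB cells carry the finished heavy chain on the surface with the surrogate light chain, divide, and then rearrange the light chain loci. Myd88 is the adaptor that passes signals of most Toll-like receptors and of interleukin 1 receptors to NF-kB.

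A probeset, the set of probes that reads 1 transcript, was called when its limma test had p under 0.05 after adjustment and its log2 difference was over 1 in either direction. Of 28944 probesets, 3.33% were called higher in the leukemias and 4.30% lower, which is 963 and 1246 probesets and 7.63% in either direction, and the median log2 difference over all probesets was -0.01. When only probesets were kept that differ by at most 1 between these WT samples and the MACS-sorted B220+ WT samples of the series, a setting chosen after seeing the data, 304 were higher and 245 lower. The methods of the study describe such B220+ cells as cultured with interleukin 7 on feeder cells, which the labels do not state. Counted once per gene, by its brightest probeset, 2.21% of 19938 genes were higher and 4.86% lower, 7.07% in all. Among the 10477 genes with a mean level of at least 7, these shares were 3.78% and 8.30%, 12.1% in all. The leukemias differed among themselves more than the WT samples did, with correlations of 0.9668 to 0.9905 between leukemias, 0.9929 to 0.9958 between WT samples and 0.9398 to 0.9523 between a leukemia and a WT sample. The array medians lay between 6.90 and 7.03. With 6 and 4 arrays, their number limits the precision of every value. *Xist*, the RNA of the inactive X chromosome, lay at 5.39, 5.57 and 6.04 in leukemias 1, 3 and 5, at 12.80, 12.49 and 12.68 in leukemias 2, 4 and 6, and between 12.23 and 12.46 in the WT samples. The Y-linked *Kdm5d* was high in the same 3 leukemias, at 8.80, 8.55 and 8.61, against at most 5.36 in every other array, so sex is uneven between the groups.

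*Myd88* itself was lower in every leukemia, by 1.25 on the log2 scale, to 42% of the WT level (2-sided exact permutation p = 0.00476, n = 6 and 4, the smallest p these group sizes allow). Its levels were 8.86, 9.26, 8.70, 9.39, 8.52 and 8.26 in leukemias 1 to 6, against 10.01 to 10.13 in the WT samples. Where its probes lie relative to the disrupted part of the gene was not tested. *Pax5* was not called, with levels of 11.17, 10.47, 11.81, 10.30, 9.07 and 11.95 in leukemias 1 to 6, against 11.81 to 12.05 in the WT samples (log2 difference -1.12, SE 0.75, adjusted p = 0.287). Leukemias 3 and 6 reached the WT range, and leukemia 5 was the lowest. In such bulk samples, fewer cells that express a gene and less of its RNA per cell cannot be told apart.

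Transcription factors of the B lineage were lower in the leukemias, and the size of the difference varied widely from factor to factor. Of 30 measured genes of this list, 13 were called lower and 0 higher, with a median log2 difference of -0.92. The 13 include inhibitors of the Id family, such as *Id2* (-1.77), which is also in the list of genes that Pax5 represses. The largest fall was that of *Ikzf3*, whose product Aiolos rises at the preB stage, at 6.64 to 7.87 (median 7.13) in the leukemias, against 11.74, 11.66, 11.80 and 11.94 in the WT samples. *Ikzf1*, which encodes the related factor Ikaros, differed by only -0.21 (adjusted p = 0.133), with 11.32 to 11.80 in the leukemias and 11.69 to 11.88 in the WT samples. The 2 factors of 1 family thus stood far apart in these samples.

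*Bach2*, a repressor that acts at the pre-B cell receptor checkpoint, lay at 8.27 to 9.55 (median 8.97) in the leukemias, against 12.28, 12.23, 12.35 and 12.50 in the WT samples (log2 difference -3.42, SE 0.32, adjusted p = 1.05e-06). *Lef1*, a WNT effector of proB cells, fell by 3.48 (SE 0.90, adjusted p = 0.00752). It read 6.25, 8.40, 7.49, 6.35, 7.11 and 10.22 in leukemias 1 to 6, against 11.03 to 11.22 in the WT samples. Leukemia 6 was thus much nearer to the WT cells than the other 5 leukemias. *Spib* (-2.42), *Irf8* (-2.21), *Irf4* (-1.87), *Foxo1* (-1.80), *Tcf3* (-1.30) and *Pou2af1* (-1.25), all regulators of B-cell development, were called lower too. *Irf4* stood at 10.90 in leukemia 6 and at 9.72 or less in the others, against 11.10 to 11.37 in the WT samples. *Irf8* stood at 12.65 in leukemia 4, above the WT samples (12.05 to 12.46), and at 10.48 or less in the other leukemias. *Ebf1*, which acts with Pax5 at the start of the B lineage, was not called, with 10 in leukemia 4 and 11.10 to 12.34 in the other leukemias, against 12.30 to 12.49 in the WT samples (adjusted p = 0.241).

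**Figure D1:**
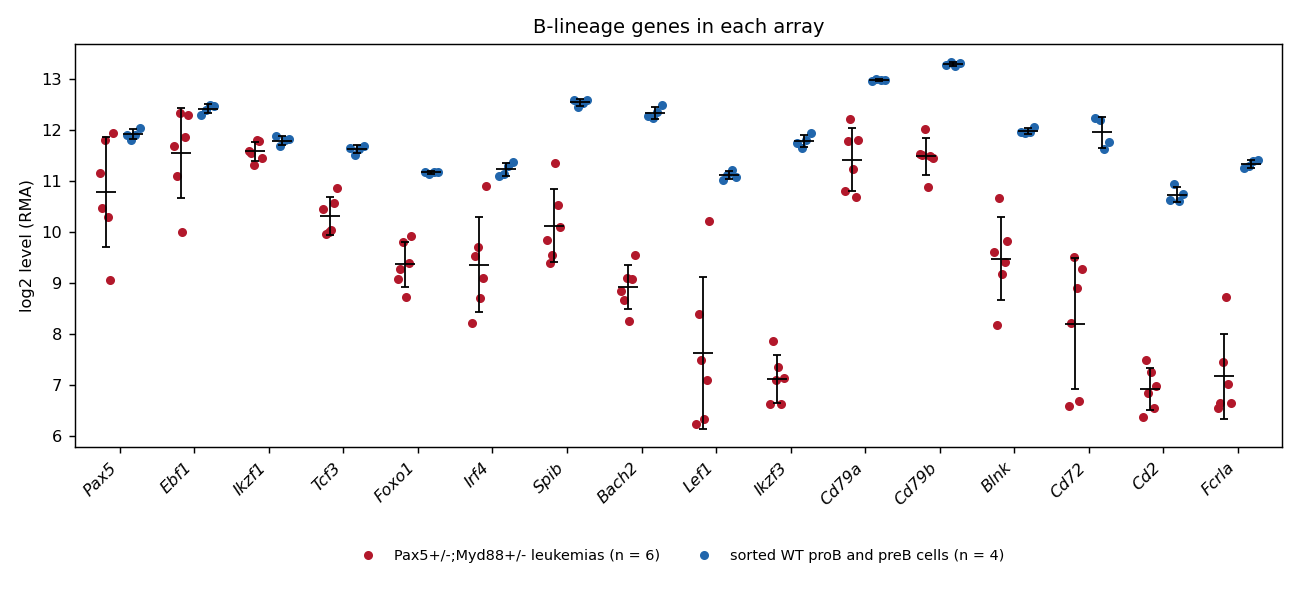
Log2 level of 16 B-lineage genes (vertical axis) in each array. Red points are the 6 *Pax5+/-;Myd88+/-* leukemias, blue points the 4 sorted WT samples, and black bars give the mean and SD. *Ikzf3* and *Bach2* are low in all 6 leukemias, *Lef1* and *Irf4* come nearest to WT in leukemia 6, and *Pax5*, *Ebf1* and *Ikzf1* overlap with the WT samples.

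In the list of the pre-B cell receptor and its signaling, 9 of 27 measured genes were called lower and 0 higher (median log2 difference -0.24), and 18 were not called, among them the kinase gene *Btk* (-0.16, adjusted p = 0.433). The signaling chain gene *Cd79a* fell by 1.56 (adjusted p = 0.0367), and *Cd79b* fell by 1.81 (adjusted p = 1.06e-05). The *Cd79a* call was lost with the replicate block and when leukemia 1, 4 or 5 or any 1 WT sample was left out, with adjusted p up to 0.166 over all settings. *Cd79b* read 10.89 to 12.02 (median 11.51) in the leukemias, against 13.28, 13.33, 13.25 and 13.31 in the WT samples. The adaptor *Blnk* lay at 9.61, 8.18, 10.67, 9.19, 9.41 and 9.82 in leukemias 1 to 6, against 11.95 to 12.07 in the WT samples (log2 difference -2.51, SE 0.75, adjusted p = 0.0184), and the kinase *Syk* fell by 1.21 (adjusted p = 7.95e-05). No leukemia reached the WT range for any of these 4 genes. The inhibitory receptors *Cd72* (-3.75) and *Siglecg* (-3.03) and the inhibitory adaptor *Dok3* (-2.09) were lower as well.

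The surrogate light chain genes varied widely among the leukemias. *Igll1*, which encodes the lambda5 part, read 11.51, 8.51, 12.99, 9.56, 11.78 and 12.21 in leukemias 1 to 6, against 13.10 to 13.28 in the WT samples, and was not called (log2 difference -2.11, adjusted p = 0.133). Its partner *Vpreb1* read 11.50, 8.61, 11.77, 10.16, 10.79 and 11.52, against 9.57, 9.82, 9.31 and 8.78 in the WT samples (log2 difference 1.35, adjusted p = 0.178). In leukemias 1, 3, 4, 5 and 6 *Vpreb1* was above every WT sample while *Igll1* was below every WT sample, and leukemia 2 was the lowest for both. *Vpreb3*, a chaperone of the receptor, was called lower (log2 difference -2.98, SE 1.04, adjusted p = 0.04), with 8.10 to 12.25 in the leukemias and 13.03 to 13.13 in the WT samples. Its call was lost when leukemia 1, 4 or 5 or any 1 WT sample was left out, with adjusted p up to 0.179.

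The recombination machinery divided the leukemias. *Rag1*, a subunit of the recombinase, read 11.06, 6.35, 11.23, 6.39, 9.72 and 10.88 in leukemias 1 to 6, against 11.09, 11.42, 10.97 and 10.98 in the WT samples. *Rag2*, the other subunit, read 9.17, 5.81, 9.74, 5.66, 6.77 and 9.99, against 9.52, 9.61, 9.27 and 8.92 in the WT samples. Both subunits were thus lowest in leukemias 2 and 4, and neither was called (adjusted p = 0.268 for *Rag1* and 0.325 for *Rag2*). *Dntt*, the terminal transferase of proB cells, was lowest in leukemia 4, at 7.52 against 9.65 to 11.01 in the other leukemias and 10.31 to 10.87 in the WT samples. Only 2 of the 15 measured genes of the list were called, both lower. *Polm*, a DNA polymerase of light chain joining, fell by 3.81 (SE 0.11, adjusted p = 7.32e-12) to 6.24 to 6.68, against 10.31, 10.10, 10.28 and 10.34 in the WT samples. The ligase *Lig4* fell by 1.93 (SE 0.34, adjusted p = 0.000426).

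Of 15 immunoglobulin probesets, 9 were called lower and 0 higher. The mean of 10 plasma cell markers was also lower in the leukemias, at 8.07 to 8.64 against 8.70 to 9.17 in the WT samples. Of these markers, *Irf4*, *Sdc1* (-1.34) and *Slamf7* (-2.60) were called lower, 0 were called higher and 7 were not called. Their median log2 difference was -0.16, with 4 above 0 and 6 below. *Jchain* was not called. It read 12.67, 11.26, 9.44, 7.84, 10.58 and 6.53 in leukemias 1 to 6, against 8.98, 7.76, 9.85 and 6.57 in the WT samples. *Irf4* is also in the list of B-lineage transcription factors. The part of plasma cells in the immunoglobulin levels was not tested. The 3 probesets that name *Ighm*, the mu heavy chain, did not move alike. The brightest was not called (adjusted p = 0.255) and read 12.34, 11.73, 8.80, 10.18, 8.0 and 8.54 in leukemias 1 to 6, against 10.85 to 11.34 in the WT samples, so that leukemias 1 and 2 were above WT and the other 4 below. The other 2 were called lower (-1.45 and -3.93). *Igha*, the alpha heavy chain, read 7.39 to 10.09 (median 8.55) in the leukemias, against 11.30, 11.42, 11.44 and 11.75 in the WT samples. Of the kappa variable segments, *Igkv6-20* read 5.85 to 7.74 (median 6.51) in the leukemias, against 8.35, 8.27, 8.20 and 8.43 in the WT samples (adjusted p = 0.0304). Its call was lost with the replicate block and without leukemia 4 or 5 or any 1 WT sample, with adjusted p up to 0.148. Leukemia 2 had the highest level among the leukemias on every kappa probeset except that of *Igkv8-30*. It also had the highest mean of the plasma cell markers among the leukemias, at 8.64. Immunoglobulin segments resemble each other, so a probeset can read more than its own segment.

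Surface receptors of later B-cell stages were lower, with 9 of 20 called lower and 0 higher (median log2 difference -0.84). *Fcrla*, an Fc receptor-like protein of B cells, read 6.56 to 8.73 (median 6.83) in the leukemias, against 11.26, 11.29, 11.40 and 11.41 in the WT samples. *Fcmr*, the receptor for IgM, fell by 2.85 (adjusted p = 2.16e-05), and the costimulatory receptor *Cd40* fell by 1.98 (adjusted p = 0.00226). *Ms4a1*, the gene of CD20, lay at 5.12 to 5.39 in 5 leukemias and at 7.67 in leukemia 2, against 9.63, 9.42, 8.71 and 8.90 in the WT samples. *Il2ra*, the interleukin 2 receptor chain CD25 of preB cells, was not called (adjusted p = 0.193). It was far below WT only in leukemia 2, at 7.46, with 9.86 to 11.68 in the other leukemias and 11.47 to 11.71 in the WT samples. *Cd24a* was lower (log2 difference -1.34, adjusted p = 0.0421), with leukemia 4 lowest at 9.50, against 12.74 to 12.86 in the WT samples. Without leukemia 4 its difference was -0.95, and the call was also lost with only the 2 groups in the fit and without leukemia 1, 2 or 5 or any 1 WT sample, with adjusted p up to 0.192.

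Genes of other lineages that Pax5 is known to repress gave 4 higher and 3 lower of 16 measured (median log2 difference 0.66). *Csf1r*, the receptor for the macrophage growth factor, read 9.21, 8.95, 10.03, 12.45, 11.78 and 7.53 in leukemias 1 to 6, against 7.22, 7.08, 6.90 and 6.86 in the WT samples (log2 difference 2.98, SE 0.72, adjusted p = 0.0051). *Flt3*, a receptor of lymphoid progenitors, read 8.62 in leukemia 6 and 10.56 to 11.81 in the others, against 8.90 to 9.37 in the WT samples (adjusted p = 0.0253). Its call was lost without leukemia 1, 2 or 5 or without WT sample 2, 3 or 4, with adjusted p up to 0.103. *Emb*, a glycoprotein, rose by 1.68 (adjusted p = 0.00103). *Notch1*, at 10.38 to 12.16 in the leukemias and 10.10 to 10.37 in the WT samples, differed by 0.97 and so missed the fold threshold (adjusted p = 0.0453). *Ccl3*, *Id2* and *Ccr2* were called lower. *Pdgfrb*, a growth factor receptor of mesenchymal cells, rose by 1.70 (adjusted p = 0.0086), with 6.68 to 9.38 (median 8.63) in the leukemias and 6.52, 6.32, 6.35 and 6.57 in the WT samples. Of these genes, *Ccl3* and *Ccr2* are also expressed by NK cells and monocytes, *Csf1r* is in the macrophage list given further on, and *Pdgfrb* is in the list of stroma and endothelium.

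Growth factor receptors and their feedback genes came next. Of 18 progenitor genes, *Kit* and *Flt3* were higher and *Cd27* was lower. *Kit*, the receptor for stem cell factor, read 9.37, 7.58, 10.05, 9.26, 11.39 and 8.83 in leukemias 1 to 6, against 8.0, 8.0, 8.02 and 7.46 in the WT samples (log2 difference 1.54, SE 0.50, adjusted p = 0.0283). The *Kit* call was lost without leukemia 3 or any 1 WT sample, with only the 2 groups in the fit, after renewed quantile normalization and with the replicate block, with adjusted p up to 0.112. In the list of interleukin 7 receptor and JAK-STAT5 genes, 3 of 20 were higher and 0 lower (median log2 difference 0.02). These were the STAT5 feedback genes *Socs2* and *Cish* and the cyclin gene *Ccnd2*. *Socs2* read 10.39 to 12.47 (median 11.45) in the leukemias, against 9.99, 10.26, 10.08 and 9.64 in the WT samples (adjusted p = 0.00467). Another *Socs2* probeset rose by 0.81, under the fold threshold. *Cish* rose by 1.04 (adjusted p = 0.0151). The receptor gene *Il7r* itself differed by -0.37 (adjusted p = 0.391).

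The interleukin gene *Il7*, which stromal cells normally supply, was high in a single leukemia. It read 10.17 in leukemia 5, against 4.68 to 5.08 in the other leukemias and 4.85 to 5.02 in the WT samples. Leukemia 5 also had the highest *Kit* and the lowest *Pax5*. Of 28 genes of the RAS-MAPK pathway and its immediate-early genes, 1 was higher and 1 lower. *Dusp6*, a phosphatase induced by ERK, had a log2 difference of 0.05 (adjusted p = 0.955), with 7.86 in leukemia 1, 9.51 to 10.72 in the other leukemias and 9.65 to 9.91 in the WT samples. *Etv5*, another gene induced by ERK, was likewise lowest in leukemia 1, at 6.71, against 7.93 to 8.20 in the WT samples.

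The Toll-like receptor and NF-kB list had 2 genes higher and 8 lower of 32 (median log2 difference -0.31). Of the 8 lower genes, 4 encode inhibitors of the pathway. *Nfkbie* read 8.05 to 9.01 (median 8.61) in the leukemias, against 10.05, 10.19, 10.38 and 10.54 in the WT samples (log2 difference -1.74, SE 0.20, adjusted p = 6.88e-06). *Nfkbib* fell by 1.72, *Tnfaip3*, a deubiquitinase that limits the pathway, by 1.74, and *Nfkbia* by 1.18. *Nfkbia*, *Nfkbie*, *Tnfaip3* and *Nfkb2* are also known to be induced by NF-kB. The ubiquitin ligase *Traf6*, which acts after Myd88, fell by 1.36 (adjusted p = 1.07e-05). *Ly96*, the partner of Tlr4, fell by 2.49 (adjusted p = 4.66e-05). *Tlr7*, which senses RNA in endosomes, rose by 1.91 (SE 0.34, adjusted p = 0.000511) to 8.20 to 10.80, against 7.91, 8.09, 7.82 and 7.88 in the WT samples. *Ticam2*, an adaptor of the branch that does not need Myd88, rose by 1.13 (adjusted p = 0.00047). *Tirap*, which bridges receptors to Myd88, differed by -0.94 (adjusted p = 0.00403) and missed the fold threshold.

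Interferon genes moved in a small group, with 4 higher and 1 lower of 29 (median log2 difference 0.28). *Gbp7*, a guanylate-binding protein, read 10.55 to 12.12 (median 11.45) in the leukemias, against 8.22, 8.28, 8.09 and 7.84 in the WT samples (log2 difference 3.28, SE 0.38, adjusted p = 8.27e-06). The membrane protein genes *Ifitm1*, *Ifitm2* and *Ifitm3* were the other 3 higher genes, by 2.45, 1.14 and 2.02. They resemble one another in sequence, and *Ifitm1* read 8.90 and 8.50 in leukemias 2 and 6 and 10.83 to 12.31 in the other 4, against 8.06 to 8.27 in the WT samples. *Rsad2* was lower (-1.61), a call that was lost in 13 of the other settings tried (adjusted p up to 0.197), and the interferon regulator *Irf7* was not called (adjusted p = 0.445), with 11.08 in leukemia 4 against 8.33 to 8.46 in the WT samples. For antigen presentation, *H2-Ob* (-2.32) and *H2-DMa* (-1.37) of 11 class II genes were lower, and the immunoproteasome subunit *Psmb8* (1.04) and the peptidase *Erap1* (1.03) of 11 class I genes were higher.

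**Figure D2:**
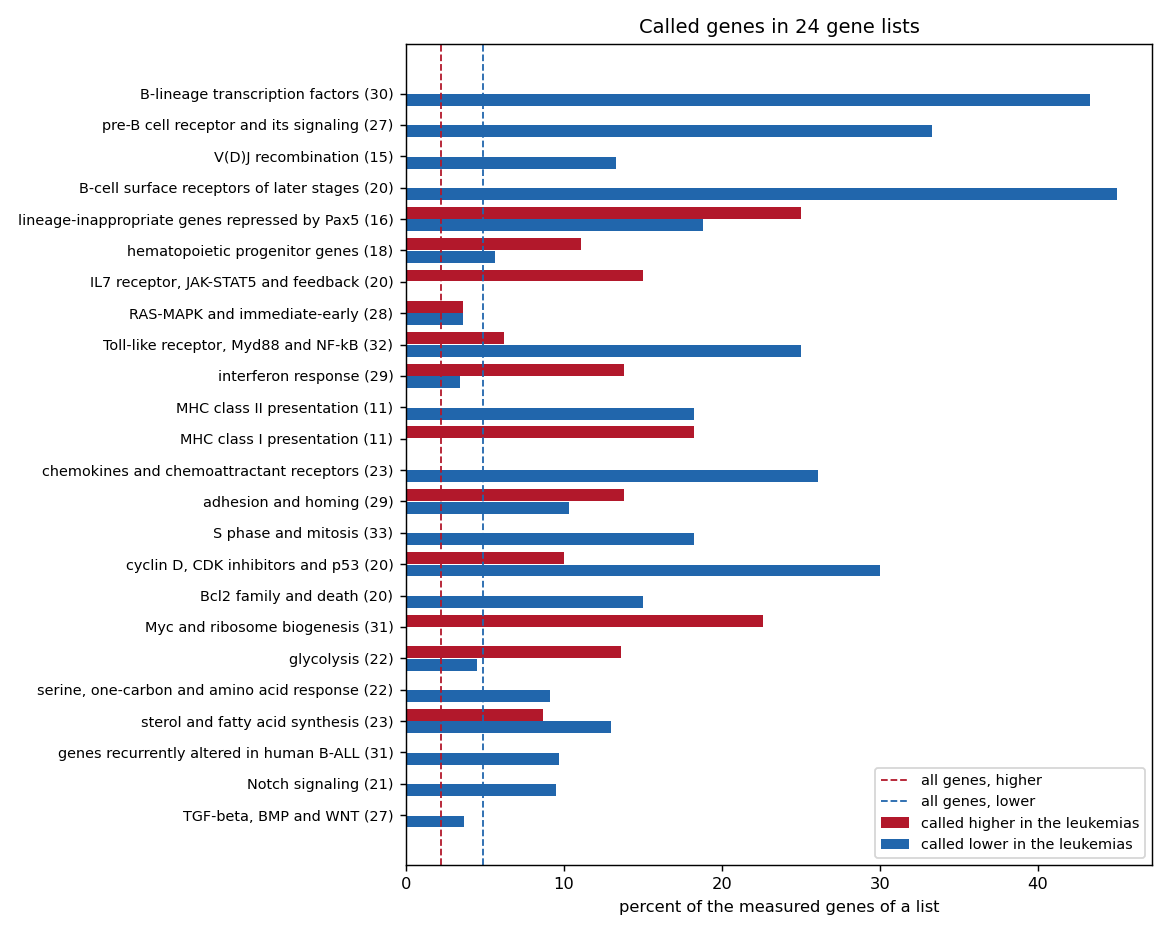
Percent of the measured genes of 24 lists (horizontal axis, number of measured genes in brackets) called higher (red) or lower (blue) in the 6 leukemias than in the 4 WT samples. Dashed lines give the share among all genes, 2.21% higher and 4.86% lower. B-cell surface receptors (9 of 20 lower), B-lineage transcription factors (13 of 30 lower) and the pre-B cell receptor list (9 of 27 lower) have the longest blue bars, and the Myc list (7 of 31 higher) has a red bar only.

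Among regulators of the G1 phase and among genes of S phase and mitosis, more genes were called lower than higher. The lower genes of the G1 list include inhibitors of the cycle, so the counts do not give a direction of cell cycle activity. In the list of D cyclins, CDK inhibitors and p53 genes, 2 of 20 were higher and 6 lower (median log2 difference -0.48). *Cdk6*, the kinase partner of D cyclins, read 11.76 to 12.95 (median 12.63) in the leukemias, against 10.94, 10.77, 10.83 and 10.76 in the WT samples (log2 difference 1.75, SE 0.24, adjusted p = 4.62e-05). *Ccnd2* rose by 1.29 (adjusted p = 0.00172), while *Ccnd3*, the D cyclin that dividing preB cells depend on, fell by 1.63 (adjusted p = 7.64e-05). *Ccnd1* was not called (adjusted p = 0.0854), with 9.23 in leukemia 1 and 10.05 to 12.23 in the other 5, against 8.99 to 9.34 in the WT samples. Of the 3 D cyclins, 1 was thus called higher, 1 lower and 1 was not called.

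*Cdkn1b*, the CDK inhibitor p27, lay at 9.59 to 9.96 (median 9.86) in the leukemias, against 11.13, 11.17, 11.23 and 11.13 in the WT samples (log2 difference -1.35, SE 0.08, adjusted p = 6.53e-09). Another *Cdkn1b* probeset differed by -0.89, under the fold threshold. *Rb1*, the retinoblastoma protein gene, fell by 1.5 (SE 0.15, adjusted p = 2.38e-06), and the antiproliferative genes *Btg1* and *Btg2* fell by 2.02 and 2.76. Of 33 genes of S phase and mitosis, 6 were lower and 0 higher (median log2 difference -0.21). These were *E2f2*, *Rrm2*, *Ccnb2*, *Aurkb*, *Cdk1* and *Foxm1*, with log2 differences of -2.24 to -1.10. *Mki67*, a marker of cycling cells, differed by -0.04 (adjusted p = 0.817), with 12.05 to 12.58 in the leukemias and 12.38 to 12.54 in the WT samples.

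Some genes of ribosome production were higher. *Myc*, which drives growth, read 11.33, 10.98, 11.82, 10.22, 11.19 and 11.10 in leukemias 1 to 6, against 9.57, 9.77, 9.52 and 9.50 in the WT samples (log2 difference 1.52, SE 0.26, adjusted p = 0.000316). Of the 31 genes of its list, 7 were called higher and 0 lower (median log2 difference 0.52), and 24 were not called. The nucleolar genes *Nop58*, *Mybbp1a*, *Utp20*, *Pes1*, *Gnl3* and *Ncl* rose by 1.00 to 1.74, and *Npm1* by 0.76, under the fold threshold (adjusted p = 0.000686). Among transcript classes, 58 of 217 probesets of ribosomal protein genes were higher and 0 lower, and 42 of 77 small RNA probesets were higher and 1 lower. Ribosomal protein genes have many near-identical copies, so these probesets are not independent of one another. *Gas5*, which hosts several small nucleolar RNAs, was higher on all 4 of its probesets, by 1.31, 2.5, 2.72 and 4.83. *Terc*, the telomerase RNA, was the small RNA called lower (-2.15).

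Metabolic genes were called in both directions. In glycolysis 13.6% were higher and 4.5% lower, and in sterol and fatty acid synthesis 8.7% and 13%. Of the serine, one-carbon and amino acid genes, 0% were higher and 9.1% lower. Over all genes these shares were 2.21% and 4.86%. In glycolysis, *Pdk1* (1.90), *Slc2a3* (1.32) and *Hk2* (1.09) were higher and *Pdk2* (-2.19) lower, of 22 genes with a median log2 difference of 0.00. *Pdk1* and *Pdk2* both encode kinases that hold back pyruvate dehydrogenase. *Slc1a5*, a glutamine transporter, read 9.61 to 9.91 (median 9.81) in the leukemias, against 12.22, 12.11, 12.26 and 12.18 in the WT samples (log2 difference -2.40, SE 0.30, adjusted p = 1.96e-05). With the asparagine synthetase gene *Asns* (-1.60) it made up the 2 lower genes of 22 in the list of serine, one-carbon and amino acid genes, where 0 were higher. Of 23 genes of sterol and fatty acid synthesis, 2 were higher and 3 lower (median log2 difference -0.15). *Acaca*, which makes the precursor of fatty acids, rose by 1.11 (adjusted p = 0.000896) on its brighter probeset and by 0.74, under the fold threshold, on another. *Cyp51*, an enzyme of sterol synthesis, rose by 1.01 (adjusted p = 0.0161). *Insig2* (-1.13), which holds back sterol synthesis, and *Abca1* (-1.47), which exports cholesterol, were lower. *Scd1*, a fatty acid desaturase, fell by 3.08 (SE 0.79, adjusted p = 0.00722), with 5.38 to 7.18 in 5 leukemias and 9.49 in leukemia 2, against 9.79 to 10.26 in the WT samples.

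Among genes of survival, movement and contact, *Bcl2l1*, the gene of Bcl-xL, fell by 1.48 (adjusted p = 0.000393), and 3 of 20 genes of its list were lower and 0 higher. Of 23 chemokines and chemoattractant receptors, 6 were lower and 0 higher. *S1pr1*, the receptor that guides cells out of tissue, read 6.21 to 7.90 (median 6.67) in the leukemias, against 9.41, 9.48, 9.42 and 9.36 in the WT samples (log2 difference -2.60, SE 0.47, adjusted p = 0.000532). *Ccr7* fell by 1.95 (adjusted p = 5.58e-06). *Cxcr4*, which holds precursors in the marrow, differed by -0.61 and missed the fold threshold (adjusted p = 0.00629). Of 29 adhesion genes, 4 were higher and 3 lower. The integrin chain *Itgb1* was among the higher ones, at 10.52 to 10.78 in the leukemias against 9.28 to 9.43 in the WT samples, and *Cd44* among the lower ones, at 6.98 to 9.73 in the leukemias against 9.75 to 10.01 in the WT samples. Of the human B-ALL genes 3 of 31 (9.7%) were lower, of the Notch genes 2 of 21 (9.5%) and of the TGF-beta, BMP and WNT genes 1 of 27 (3.7%). Over all genes 4.86% were lower, and 8.30% of those with a mean level of at least 7. These lists had no higher gene, but with 2.21% higher over all genes, lists of this size say little on that.

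Over all genes, the largest differences lay outside the lists in part. *Lgr5*, a WNT receptor component known from stem cells of the gut, read 5.46 to 5.63 in 5 leukemias and 7.27 in leukemia 6, against 9.96, 10.42, 10.28 and 10.11 in the WT samples (log2 difference -4.37, SE 0.56, adjusted p = 2.15e-05). *Eya1*, a transcriptional coactivator with phosphatase activity, fell by 3.87 (SE 0.09, adjusted p = 3.04e-13), and the kinase gene *Nuak1* by 3.76 (adjusted p = 1.71e-09). *Cpm*, a membrane carboxypeptidase, *Atp1b1*, a sodium pump subunit, and *Slc36a4*, an amino acid transporter, had log2 differences of -4.33, -3.98 and -3.65. The genes of this paragraph were picked among called genes whose groups do not overlap, so their separation follows from the choice. Of all 2209 called probesets, 2064 did not overlap between the groups.

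*Igf2bp3*, an RNA-binding protein of fetal blood cells and of several cancers, rose by 2.76 (SE 0.29, adjusted p = 3.13e-06). It read 9.75, 9.05, 9.67, 9.05, 10.18 and 9.31 in leukemias 1 to 6, against 6.57, 6.54, 7.10 and 6.77 in the WT samples. *Lin28b*, which acts before Igf2bp3 in fetal mouse progenitors, differed by 0.01 (adjusted p = 0.912), at 5.28 to 5.57 in the leukemias. *Adgrg3*, an adhesion receptor, *Atp8b4*, a lipid flippase, and *Frmd4b*, a scaffold protein, rose by 2.70, 2.80 and 3.30, and were picked by the same rule. Probesets of 1 gene conflicted for *Hibadh*, where a dim probeset rose by 4.17 and the brighter one fell by 1.43. *Top2a*, the mitotic topoisomerase, had a dim probeset that rose by 3.73 and a brighter one that differed by -0.08 (adjusted p = 0.688). These 2 genes are therefore uncertain.

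Of 305 microRNA probesets, 6 were called higher and 5 lower, both smaller shares than the 3.33% and 4.30% over all probesets. MicroRNA probesets read the precursor or its primary transcript rather than the mature microRNA. The mature sequences of 5 genes with a known cluster, host gene or seed family are given from RefSeq (GRCm38.p6) to show which of them share a seed, the part that pairs with target RNAs, with the seed (bases 2 to 8) in capitals.
mmu-miR-18a-5p: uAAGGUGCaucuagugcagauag
mmu-miR-363-3p: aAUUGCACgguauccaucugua
mmu-miR-687: cUAUCCUGgaaugcagcaauga
mmu-miR-30e-5p: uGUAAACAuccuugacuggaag
mmu-miR-7a-5p: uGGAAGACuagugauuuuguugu
No 2 of these 5 share a seed. The seed of miR-363-3p is that of miR-25-3p, miR-32-5p, miR-92a-3p, miR-92b-3p and miR-367-3p, 6 mature sequences in all.

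*Mir18*, whose miR-18a-5p arm lies at chr14:115043867-115043889 in the *Mir17hg* cluster, read 7.09, 5.82, 8.71, 7.11, 8.52 and 8.32 in leukemias 1 to 6, against 6.08, 5.57, 5.71 and 5.87 in the WT samples (log2 difference 1.79, SE 0.47, adjusted p = 0.009). It overlapped with the WT range only in leukemia 2. The neighbours *Mir17*, *Mir19a*, *Mir20a* and *Mir19b-1* differed by 0.19 to 0.73, and the host transcript *Mir17hg* by 0.28, none of them called. *Mir363*, of the related X-linked cluster, rose by 1.05 (adjusted p = 0.000191), with 5.79 to 6.46 in the leukemias and 4.92 to 5.17 in the WT samples, while its neighbours *Mir106a*, *Mir20b*, *Mir19b-2* and *Mir92-2* differed by -0.09 to 0.20. In each cluster a single member was called. *Mir687*, with its mature arm at chr14:73206808-73206829 within the span of *Rb1*, fell by 2.91 (adjusted p = 5.85e-09) to 4.77 to 5.39, against 7.89, 8.12, 8.07 and 7.81 in the WT samples, in the same direction as *Rb1*. *Mir30e*, within the span of *Nfyc*, fell by 1.11, in the same direction as *Nfyc*. The brighter *Nfyc* probeset differed by -0.94 (adjusted p = 4.97e-06), under the fold threshold, and another by -1.16. *Mir7-1*, within the span of *Hnrnpk*, fell by 1.32, while the brightest *Hnrnpk* probeset differed by -0.19, under the fold threshold.

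Markers of other cell types differed between the groups, and they did so unevenly among the leukemias. The mean log2 level of 14 NK cell markers lay between 6.06 and 6.69 in the leukemias and between 7.60 and 8.32 in the WT samples, with 8 called lower and 1 higher. *Ncr1*, a defining receptor of NK cells, read 5.05 to 6.34 in the leukemias, against 9.97, 9.31, 9.37 and 9.10 in the WT samples. *Gzma* (-2.94), *Eomes* (-2.72) and *Nkg7* (-3.96) were lower too, and NK cells also express the *Ccl3* and *Ccl5* that are lower in the chemokine list. The B220low IgM- gate does not in itself remove NK cells, some of which carry B220. Plasmacytoid dendritic cell markers, at 7.87 to 10.24 in the leukemias and 9.04 to 9.26 in the WT samples, had their highest mean in leukemia 4. *Siglech*, which defines those cells, read 10.63, 7.24, 6.66, 12.34, 11.10 and 6.58 in leukemias 1 to 6, against 10.75 to 11.18 in the WT samples. The T cell markers had means of 6.56 to 7.13 in the leukemias and 6.80 to 6.90 in the WT samples.

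Macrophage and monocyte markers averaged 7.32, 9.41, 6.85, 8.60, 7.71 and 6.61 over 21 genes in leukemias 1 to 6, against 6.40 to 6.61 in the WT samples, with 7 higher and 0 lower. Stromal and endothelial markers averaged 7.88, 9.32, 7.26, 7.17, 8.17 and 7.02 over 19 genes, against 6.65 to 6.73 in the WT samples, with 7 higher and 0 lower. Platelet markers averaged 9.24 in leukemia 2 and 8.53 in leukemia 5, against 6.50 to 6.64 in the WT samples. Leukemia 2 thus stood highest in all 3 lists. The mannose receptor *Mrc1* of macrophages (7.37 to 10.32 in the leukemias, 5.57 to 5.85 in the WT samples) and the matrix gene *Sparc* (7.79 to 11.63 in the leukemias, 6.36 to 6.80 in the WT samples) belong to these lists, and so does *Csf1r*. The part of these cells in the differences between the groups was not tested.

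Granulocyte markers split the WT samples, with means of 8.97 and 8.86 in WT samples 1 and 2 and 6.82 and 6.77 in WT samples 3 and 4, and they averaged 6.35 to 9.34 in the leukemias, highest in leukemia 4. *S100a8* read 9.03, 7.26, 10.79, 12.03, 8.78 and 6.87 in leukemias 1 to 6, against 10.34, 10.39, 6.97 and 6.70 in the WT samples. Of the 20 granulocyte markers 0 were called. Erythroid markers averaged 8.33 in leukemia 2 and 6.91 to 7.08 in the others, against 7.78 to 8.16 in the WT samples, with 6 lower and 0 higher of 16. Without leukemias 2 and 4, a setting chosen after seeing the data, 981 probesets were higher and 1280 lower, and without WT samples 1 and 2, also chosen afterwards, 830 and 1073.

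**Figure D3:**
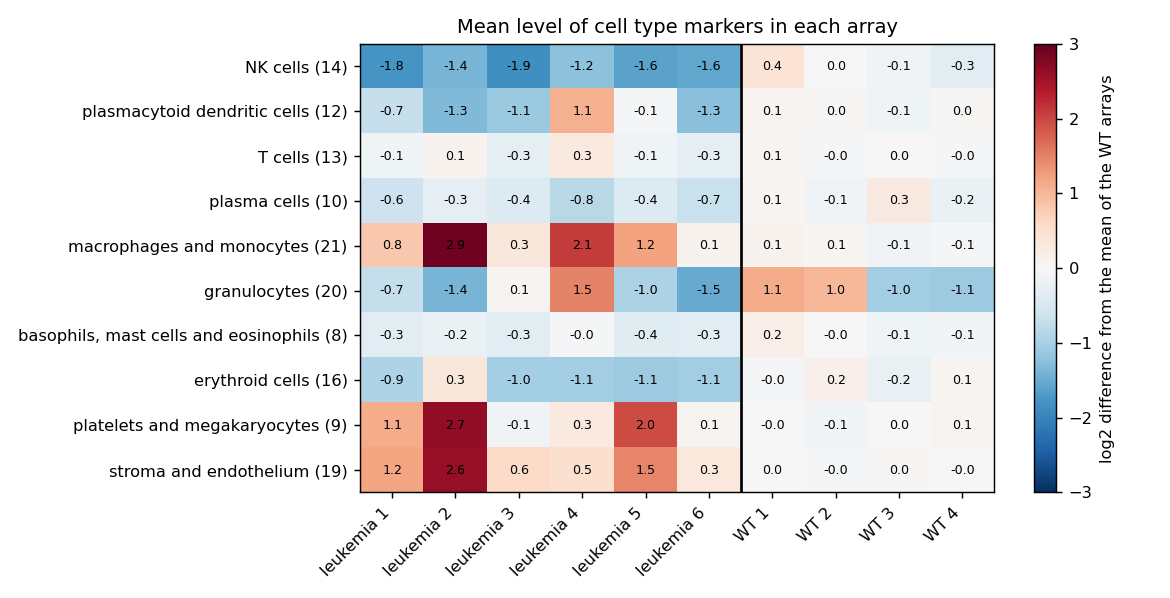
Mean log2 level of the markers of 10 cell types (rows, number of markers in brackets) in each array (columns, leukemias left of the black line, WT right), as the difference from the mean of the 4 WT samples. Leukemia 2 is highest for macrophage, platelet and stromal markers, leukemia 4 for granulocyte and plasmacytoid dendritic cell markers, NK markers are low in all 6 leukemias, and granulocyte markers are high in WT samples 1 and 2.

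Some transcripts differed widely among the leukemia samples, and whether they come from the leukemic cells was not tested. The SD over the 6 leukemias exceeded 1 for 551 probesets, and that over the 4 WT samples for 54. Genes were ranked by the SD of their brightest probeset, without *Xist* (SD 3.84), Y-linked genes and classes such as small RNA, antigen receptor and predicted transcripts. *Gria2*, a glutamate receptor subunit, had the second largest spread (SD 2.71, against 0.19 in the WT samples) and read 11.17, 6.16, 5.11, 10.80, 8.62 and 5.41 in leukemias 1 to 6, against 5.24 to 5.68 in the WT samples. *Mrgpra1*, a receptor of sensory neurons, read 12.27 in leukemia 1 and 9.54 in leukemia 4, against 5.04 to 5.56 in the WT samples. *Rasgrp3*, an activator of RAS, read 11.95, 9.05, 6.64, 7.10, 11.08 and 5.83, against 7.74 to 8.15 in the WT samples. The pair of leukemias with the closest profiles, 1 and 5 (r = 0.9905 across probesets), were also the highest for *Rasgrp3*. The largest SD in that ranking was that of *Kcnma1*, a potassium channel, which also varied from 8.45 to 13.28 among the WT samples.

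When every gene was searched for a leukemia that stood more than 2 log2 units above or below all other 9 arrays, leukemia 2 had 28 such genes above and 2 below, leukemia 4 had 7 and 1, leukemia 6 had 7 and 4, leukemia 3 had 5 and 0, leukemia 1 had 2 and 0 and leukemia 5 had 1 and 0. These genes were chosen by their values and carry no test. Those of leukemia 2 include the stromal genes *Cxcl12* (11.10, against 6.20 to 7.94 in the other arrays), *Lox* (8.90 against 5.39 to 5.73) and *Fabp4* (9.61 against 4.99 to 6.93). *Stfa3*, a stefin of myeloid cells, read 11.01 in leukemia 4, against 4.75 to 5.17 elsewhere. *Apobec2*, a member of the cytidine deaminase family, read 9.64 in leukemia 3, against 5.66 to 6.03. *Aqp11*, a water channel, read 9.04 in leukemia 6, against 5.82 to 5.99.

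Of the 4 genes that were low in leukemia 6 alone, *Sgk3*, a kinase of the PI3K pathway, read 5.65 in that leukemia, against 9.46 to 10.77 in the other arrays. *Ptch1*, the receptor for hedgehog ligands, read 6.12 against 8.84 to 9.97, and *Fmnl2*, a formin, 6.56 against 8.62 to 9.81. *Cd74*, the invariant chain of MHC class II, read 7.27 against 10.01 to 12.10. The class II genes *H2-Aa* (6.28) and *H2-Ab1* (7.01) were likewise lowest in leukemia 6, against 9.87 to 11.19 and 8.70 to 11.09 in the WT samples.

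**Figure D4:**
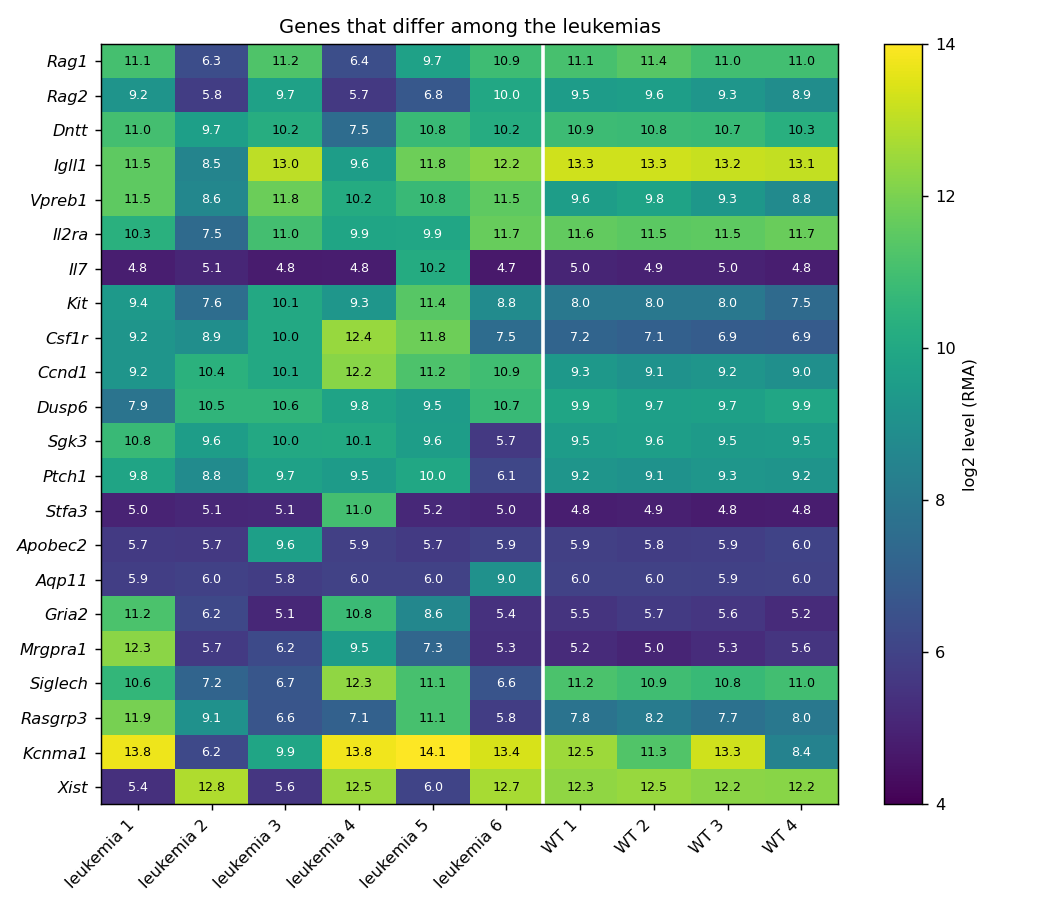
Log2 level, written in each cell, of 22 genes (rows) in the 6 leukemias (left of the white line) and the 4 WT samples (right). *Rag1* and *Rag2* are lowest in leukemias 2 and 4, *Il7* is high in leukemia 5 alone, *Sgk3* and *Ptch1* are low in leukemia 6 alone, and *Xist* is low in leukemias 1, 3 and 5.

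By chromosome, the median change of the expressed genes was nearly flat. Each leukemia was set against the WT mean over 10468 genes with a mean level of at least 7, and the median over its autosomal genes was subtracted. The farthest value was that of chromosome 15 in leukemia 3, at 0.17 over 426 genes, against -0.03 to -0.02 for the same chromosome in the other 5 leukemias. *Myc*, which lies on chromosome 15, was highest in leukemia 3, at 11.82. Over the genes with a mean of at least 8, the same value was 0.27. All other autosomal medians over genes of at least 7 lay between -0.11 and 0.14, and the next largest was that of chromosome 18 in leukemia 1. The deposited values do not measure DNA copies, and whether a change in copy number goes with these shifts was not tested.

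**Figure D5:**
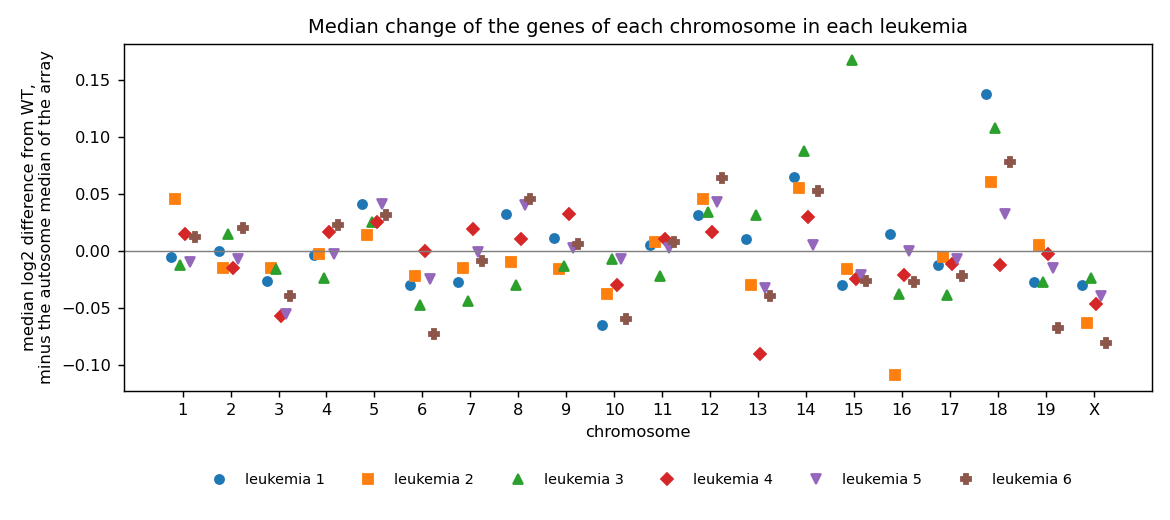
Median log2 difference from the WT mean of the genes of each chromosome (horizontal axis), minus the median over the autosomal genes of the array (vertical axis), with 1 marker for each of the 6 leukemias. Chromosome 15 in leukemia 3, at 0.17, is farthest from 0.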

How the data were processed

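RNA of 32 samples was hybridised to Affymetrix mouse gene arrays. The authors made the deposited log2 values in Transcriptome Analysis Console, using RMA summarized by gene, a method of background correction, quantile normalization and probe summary. Whether all arrays were normalized together is not given in the sources used here. The values are rounded to 2 decimals.

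The sample titles gave the groups and the replicate numbers. Members, lists and rules were chosen with earlier results of these data known. limma 3.58.1 in R 4.3.3 was fitted to 16 arrays, the 10 compared and the 6 *Pax5+/-* leukemias, which share the estimate of the spread, with Benjamini-Hochberg adjustment over all 28944 probesets and no filter. The fit was tested on simulated data. Of the probesets, 21789 name 1 gene, 1621 several and 5534 none, and only the first kind is named here. A gene was represented by its probeset with the highest mean over the 10 arrays. List members were matched by symbol, 539 distinct genes in 24 pathway lists, and described by counts and medians without a test. *Myd88* was tested by exact permutation. Other settings tried were fewer or more arrays in the fit, centring, renewed quantile normalization, a level filter, limma-trend, array weights, the replicate block, the methods' t-test and each array left out.

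Named genes are the 15 largest called rises and falls without overlap that name 1 gene and belong to no class of small RNA, histone, mitochondrial, predicted, unnamed or antigen receptor transcripts, the 6 largest called members and the anchor genes of each list, called microRNA genes, the 12 genes of largest spread, *Myd88*, *Pax5*, *Xist* and Y-linked genes. *Cd24a*, *Cd40*, *Emb*, *Etv5*, *Lin28b*, *Nfkb2*, *Pou2af1*, *Terc*, *Ticam2*, the immunoglobulin genes, the cluster neighbours and host genes of microRNAs and the genes of a single leukemia fall outside this rule and were chosen after their values were seen. Same-numbered arrays of the 2 groups did not deviate together (correlations -0.06 to 0.09), so numbers do not pair samples. Some genes are not analysed here.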

Additional observations from a re-analysis of the deposited data

Results flagged for a closer look

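Of 370 groups of values examined with Dixon's test, 33 held a sample that stood apart from the rest of its group, and chance gives about 1 in 20. The genes of a single leukemia were chosen because they stand apart, so this count is not one of independent genes.

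Leukemia 2 stood high for *Cxcl12* (11.1), *Lox* (8.9), *Asns* (7.62), *Ms4a1* (7.67), *Rsad2* (10.39) and the mean of the erythroid markers (8.3287, against 6.9056 to 7.0825 in the other leukemias), and low for *Foxm1* (8.95) and *Mir92-2* (5.57). Leukemia 6 stood high for *Aqp11* (9.04), *Lgr5* (7.27) and *Gas5* (13.53). It stood low for *Sgk3* (5.65), *Ptch1* (6.12), *Fmnl2* (6.56), *H2-DMa* (6.66), *Ifitm3* (8.38) and *Tlr7* (8.2).

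Leukemia 4 stood high for *Stfa3* (11.01), *Ccr2* (9.58) and *Ncr1* (6.34) and low for *Cdk6* (11.76). *Apobec2* (9.64) and *Rrm2* (10.68) stood high in leukemia 3, *Ccr7* (8.44) in leukemia 1 and *Il7* (10.17) in leukemia 5.

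Among the WT samples, whose ranges are narrow, sample 1 stood low for *Tirap* (8.49), sample 2 stood high for *Fabp4* (5.16), *Mir19a* (5.08), *Npm1* (11.27) and *Btk* (10.3), sample 3 stood low for *Aqp11* (5.93), and sample 4 stood high for *Blnk* (12.07) and low for *Kit* (7.46).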

How the results depend on the processing

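With single arrays left out, 820 to 1010 probesets were higher and 1172 to 1300 lower, and 1975 to 2101 of the 2209 calls were kept. The *Myd88* difference ranged from -1.36 to -1.14. With the replicate block, which rests on numbers that do not pair the samples, 997 were higher and 1233 lower. In another setting, the 10 arrays alone were quantile normalized again and fitted. It left out small RNA, microRNA, mitochondrial, histone, immunoglobulin and unnamed probesets. Here 633 were higher and 844 lower, and 1308 of the 1546 calls still tested were kept. This setting tests fewer probesets, and the microRNA and immunoglobulin genes named in the text were not tested in it. Without the fold threshold, 3983 were higher and 4952 lower. Without the probesets that differ by over 1 between the B220+ WT cells of the series, cultured per the methods, and the sorted B220low IgM- WT cells, chosen after seeing the data, 304 were higher and 245 lower. That setting too has fewer probesets. Of the 2209 calls, 558 were still tested in it, and 549 of these were kept. Of the 120 called genes named in the text, 31 were still tested. The filter uses the WT samples of the comparison, so the calls kept are not a separate test. Centring the arrays on their medians gave 887 higher and 1379 lower. The chromosome 15 value of leukemia 3 was 0.265 over genes with a mean of at least 8, and the cause was not tested. No called gene named in the text changed direction under a setting tried. Of 120 called genes named in the text, 20 lost the call under at least 1 setting other than those chosen after seeing the data. Besides those given with their p above, *Igkv8-30* lost it without leukemia 1, 4, 5 or 6 or WT sample 1 or 3 (adjusted p up to 0.138), and *Cd44* lost it with the replicate block (adjusted p up to 0.127). Near the fold or p threshold, the call was lost for *Cish* without leukemia 1, 3 or 5 or WT sample 3 and with centring, for *Cyp51* without leukemia 1, 3 or 5 or WT sample 2 or 4, with centring and with the block, for *Erap1* without leukemia 1 or 3 or WT sample 4 and with centring, for *Ncl* without leukemia 1, 3 or 5 or WT sample 3 or 4, with centring and with the block, for *Psmb8* without leukemia 1 or 4 or WT sample 4, for *Slc2a3* without WT sample 3, for *Mir30e* and *Foxm1* without leukemia 2, for *Mir363* without leukemia 5 and with the block, for *Cdk1*, *Foxm1* and *Nfkb2* after renewed normalization and for *Nfkb2* with the block. Without WT samples 1 and 2, 24 lost it, *Lef1*, *Irf8*, *Scd1* and *Ifitm1* among them, and without leukemias 2 and 4, 11 did.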
